A study of Mus musculus with 8 samples.

Results

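Mitochondrial respiration runs on protein complexes whose subunits are encoded partly in the nucleus and partly in the mitochondrial genome. Complex I (NADH dehydrogenase) and complex II (succinate dehydrogenase) pass electrons through ubiquinone to complex III (the cytochrome bc complex), cytochrome c carries them to complex IV (cytochrome c oxidase), and complex V (ATP synthase) uses the resulting proton gradient to make ATP. Quiescent blood stem cells are known for a low reliance on this pathway and for its increased use as they divide and differentiate. Nuclear-encoded subunit genes were taken from the annotation by symbol, as all protein-coding genes named Nduf followed by a, b, c, s or v and a number, Sdha to Sdhd, Uqcr, Cox4 to Cox8 or Atp5, together with Cyc1 and Cycs. This gave 85 genes of the 48709 gene identifiers in the files: 36 in complex I, 4 in complex II, 9 in complex III with Cyc1, 18 in complex IV, 17 in complex V, and Cycs, which encodes cytochrome c. The symbols place Ndufa4 in complex I, although its protein is known as a complex IV subunit, and Atp5s in complex V, although its product (coupling factor B) is not a core synthase subunit. Of the 85 genes, 82 had enough counts for the test, and Cox7b2, Cox8b and Cox8c had no count in any library.

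The study compared cultures of hematopoietic stem and progenitor cells (HSPCs, sorted as Lin-Sca1+cKit+) from C57Bl/6J mice with and without malonyl-CoA. Malonyl-CoA is the carbon donor of fatty acid synthesis and an inhibitor of fatty acid import into mitochondria. Each well started from 10000 cells, both groups received the cytokines SCF (100 ng/ml) and Flt3 ligand (2 ng/ml) without serum, and RNA was taken from all progeny after 7 days. The 4 control libraries had no malonyl-CoA and the 4 malonyl-CoA libraries had 100 µM, each made from 350 ng of total RNA and numbered 1, 3, 4 and 5. The design text calls them biological replicates, and it is not stated whether a number stands for an animal, a pool or a culture, so p-values measure the spread between these samples. Animal age and sex are not stated either.

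Each library held between 17492085 and 22079844 counts in genes. The defining genes of the sort were present in every library, Kit between 204 and 320 CPM (normalised read counts relative to library size, with TMM factors between libraries) and Ly6a, which encodes Sca1, between 24.7 and 110. Of other RNA in the cultures, 12 neutrophil granule genes summed to between 13760 and 21560 CPM in controls and 13830 and 17630 with malonyl-CoA. Mpo was the highest of them, between 6310 and 11900 CPM, while Ltf lay between 5.47 and 17.5 CPM. The stage of the cells behind this sum was not tested. The 8 lymphoid genes listed summed to between 121.7 and 155.4 CPM in controls and 98.52 and 137.4 with malonyl-CoA. Of these, Cd3e was at 0 in all 8 libraries. In bulk RNA, fewer cells of a type and less RNA per cell cannot be told apart. Library malonyl-CoA 4 stood apart, with 2.94% of its reads outside genes against at most 1.56% in the other 7, and library control 5 stood apart in the GC share of what it held, as given below.

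Respiratory chain genes have many processed pseudogenes, and reads that align to several places were kept out of the gene counts by the authors' counting (38.2% to 51.1% of the reads in each file). For each gene, the share of 50-base stretches of its coding sequence that also occur in a transcript of another annotated locus was therefore computed. In 5 genes every coding stretch occurred elsewhere. Their opening coding bases, positions 1 to 50 counted from the start codon and taken from the GENCODE M21 transcripts (GRCm38), are shown because each of these stretches is present letter for letter in the copies named after it, so that no part is set in capitals.
Ndufb4 (chromosome 16), also in Ndufb4c on chromosome 15: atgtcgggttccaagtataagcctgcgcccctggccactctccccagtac
Cycs (chromosome 6), also in Gm13772 on chromosome 2 and Gm10053 on chromosome 19: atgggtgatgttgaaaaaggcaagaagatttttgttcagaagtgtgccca
Cox7c (chromosome 13), also in Gm12338 on chromosome 11: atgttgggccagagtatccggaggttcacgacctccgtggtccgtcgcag
Atp5g2 (chromosome 15), also in Gm10175 on chromosome 7 and Gm10231 on chromosome 17: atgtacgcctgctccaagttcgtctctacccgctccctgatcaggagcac
Atp5l (chromosome 9), also in Atp5l2-ps on chromosome 11 and Gm10221 on chromosome 5: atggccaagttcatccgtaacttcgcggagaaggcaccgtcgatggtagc

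The counted level of these genes was low. Mean CPM over the 8 libraries was between 1.22 and 11.7 for the 5 fully copied genes, with a median of 3.19, against a median of 132 CPM for the 47 tested genes with no shared coding stretch. The 9 genes with shares from 50% to under 100% had a median of 107 CPM, and the 21 genes with smaller shares had a median of 101 CPM. The copies themselves had few counts: the highest value among the copies named above was 2.57 CPM, for Gm10175. The values of these 5 genes are therefore counts of uniquely placed reads and are uncertain as transcript levels. How many of their reads went to the uncounted class was not tested.

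**Figure D1:**
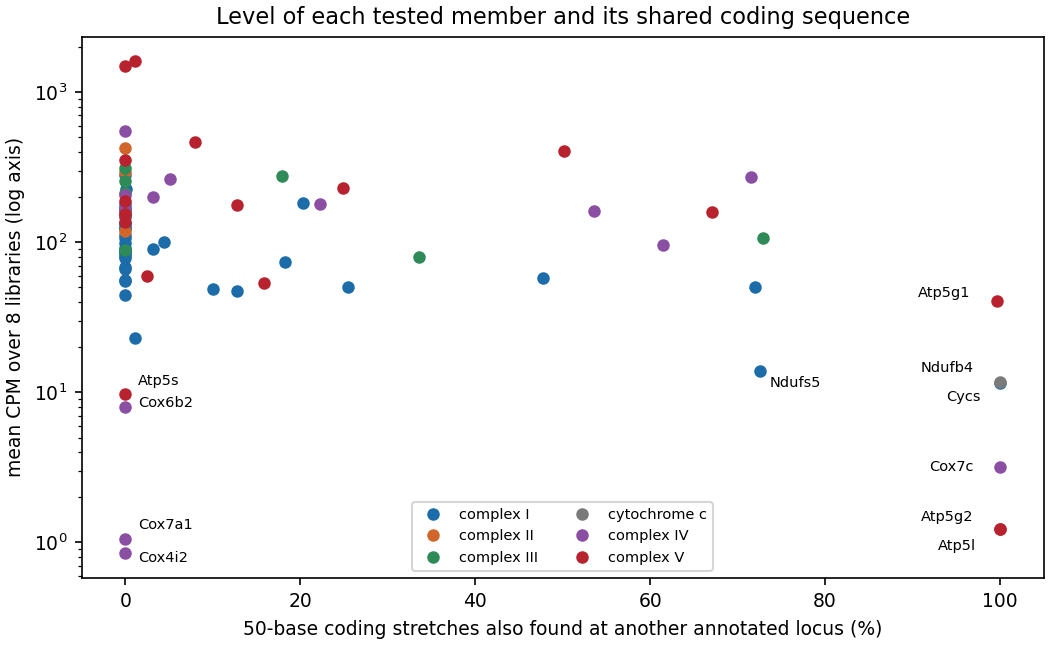
Mean CPM over the 8 libraries (log axis) of each of the 82 tested genes against the share of its 50-base coding stretches that also occur at another annotated locus, coloured by complex. The 5 genes at 100% sit between 1.22 and 11.7 CPM, and the 47 genes at 0% have a median of 132 CPM.

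Promoters were examined for the binding letters of factors known to drive respiratory chain genes: nuclear respiratory factor 1 (NRF1, letters GCGCANGCG), the ETS-family factor GABP (CCGGAAG), YY1 (ANATGGCG) and the CCAAT box (CCAAT), each on both strands, in windows from 250 bases before to 50 after the RefSeq start site (GRCm38.p6). A window was given for 67 of the 85 genes. The NRF1 letters occurred in 20 of the 67 windows (29.9%), against 6.47% of all 27025 promoters and 8.83% of those of protein-coding genes. The ETS letters occurred in 15 windows (22.4%, against 9.12% of all promoters and 11.9% of those of protein-coding genes). The YY1 letters occurred in 12 (17.9%, against 3.84% and 4.75%) and the CCAAT letters in 30 (44.8%, against 37.9% and 39%). Among complexes with more than 10 windows, NRF1 matches were found in 6 of 13 windows of complex V, 8 of 32 of complex I and 1 of 13 of complex IV. A match describes the letters only, and says nothing of whether a factor binds.

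Parts of the promoters of 4 genes described below are shown, from the table's RefSeq start sites, each 5′ to 3′ on the gene's own strand (the minus strand in all 4), with matches to the 4 letter patterns in capitals. Each stretch stops short of annotated exons of protein-coding genes, which for Sdhd means that it fills the gap to Timm8b, a gene read in the opposite direction.
Ndufb4, chr16:37654454-37654568: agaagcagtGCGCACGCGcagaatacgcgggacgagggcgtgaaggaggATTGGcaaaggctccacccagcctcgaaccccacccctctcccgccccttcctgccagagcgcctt
Sdhd, chr9:50603850-50603909: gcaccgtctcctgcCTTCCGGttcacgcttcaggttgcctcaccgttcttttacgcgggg
Cycs, chr6:50566570-50566669: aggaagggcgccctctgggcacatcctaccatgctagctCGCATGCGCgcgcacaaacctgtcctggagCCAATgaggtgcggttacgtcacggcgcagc
Cox6a1, chr5:115348982-115349128: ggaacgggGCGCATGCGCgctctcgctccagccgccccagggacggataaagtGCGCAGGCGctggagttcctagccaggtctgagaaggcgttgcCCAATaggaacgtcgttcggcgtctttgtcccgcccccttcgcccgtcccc
The Ndufb4 and Cox6a1 stretches hold NRF1 and CCAAT letters, that of Cycs holds both as well, and that of Sdhd holds the ETS letters read on the opposite strand. In Cox6a1 the capitals GCGCATGCGC mark a pair of overlapping NRF1 matches, 1 on each strand.

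The level of each gene was compared per kilobase of its transcript. The median over tested genes was 94.9 CPM per kb in complex I, 124.7 in complex II, 165.5 in complex III, 254.4 in complex IV and 253.8 in complex V. The highest level was that of Atp5b, the catalytic beta subunit of ATP synthase, at 838 CPM per kb, followed by Cox4i1, the ubiquitous form of complex IV subunit 4, at 722. Uqcrh, the hinge protein of complex III, reached 507 and Ndufa4 460 CPM per kb. The order of neighbours on this scale depends on the annotated transcript, and Atp5g1 and Ndufb2 were divided by principal transcripts of 4715 and 4371 bases.

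Several complex IV subunits exist as a general form and a form known from heart, skeletal muscle, lung or testis, and most of the tissue forms were near 0. Cox4i1 lay between 370 and 692 CPM, while Cox4i2, its lung and hypoxia-linked form, lay between 0.268 and 1.27. Cox6b1 lay between 148 and 273 CPM and its testis form Cox6b2 between 6.30 and 10.2. Cox7a2 lay between 99.0 and 228 CPM and its heart and muscle form Cox7a1 between 0.419 and 1.54. Cox8a lay between 105 and 227 CPM, and its muscle and testis forms Cox8b and Cox8c were at 0 in all 8 libraries, which allows up to between 0.136 and 0.172 CPM (3 counts in a library, counting error only).

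Cox6a2, the heart and muscle form of subunit 6a, was an exception. It had 143, 163, 121 and 128 CPM in control libraries 1, 3, 4 and 5, and 164, 152, 114 and 209.5 CPM in malonyl-CoA libraries 1, 3, 4 and 5. The general form Cox6a1 had 203, 188, 143 and 163 CPM in the controls and 201, 177, 139.9 and 235 CPM with malonyl-CoA. Cox6a2 thus lay below Cox6a1 in all 8 libraries but within the same order, at 219.7 CPM per kb on average against 317 for Cox6a1. Cox6a2 shares no coding stretch with another annotated locus, and Itgad, which overlaps it on the opposite strand, was at or below 0.799 CPM.

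**Figure D2:**
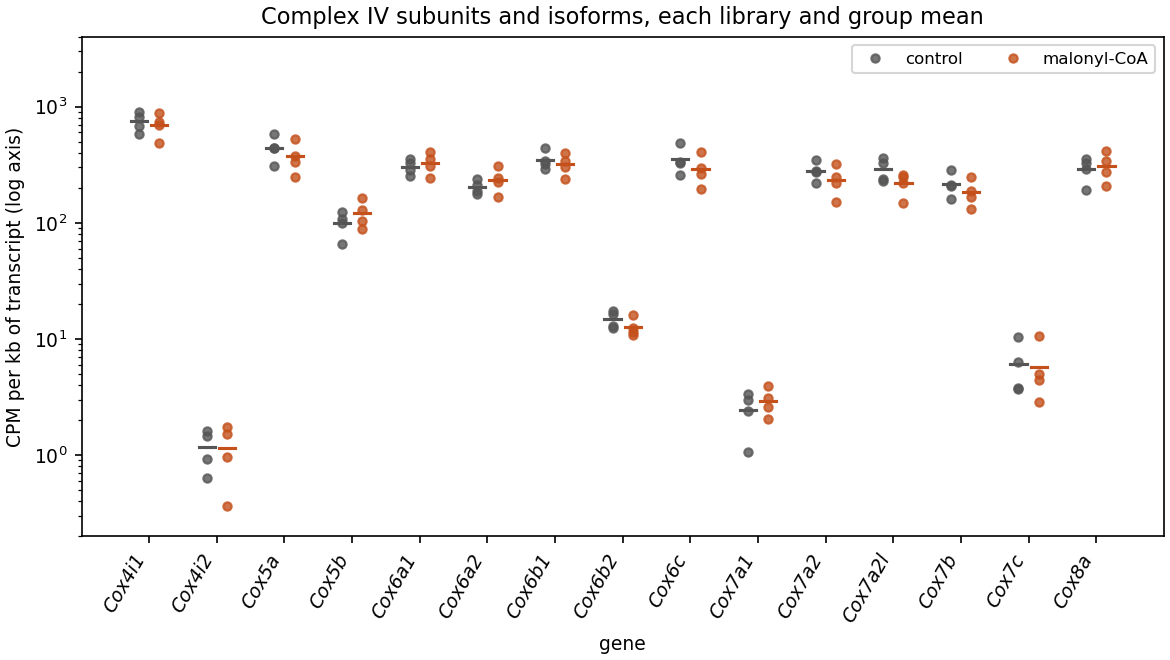
CPM per kb of transcript (log axis) of the 15 tested complex IV genes in each control and malonyl-CoA library (points) and group means (bars). Cox6a2 lies next to Cox6a1, whereas Cox4i2 and Cox7a1 lie far below Cox4i1 and Cox7a2.

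The share of counts in the respiratory chain varied between the libraries of each group by more than the group means differed. The 85 genes together took 1.58%, 1.5%, 1.31% and 1.37% of gene counts in control libraries 1, 3, 4 and 5, and 1.47%, 1.36%, 1.05% and 1.59% in malonyl-CoA libraries 1, 3, 4 and 5. The group means were 1.44% ± 0.122 (SD, n = 4) and 1.37% ± 0.232 (SD, n = 4), and the groups overlapped: the highest and the lowest library were both malonyl-CoA libraries. Complex V took the largest share, 0.563% ± 0.0572 in controls and 0.539% ± 0.0827 with malonyl-CoA, followed by complex I with 0.357% ± 0.0224 and 0.337% ± 0.0590 (SD, n = 4 each).

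Library malonyl-CoA 4 had the lowest value of 56 of the 82 tested genes (68.3%), whereas it had the lowest value of 24.3% of all 12696 genes tested. Averaged over the 82 genes, its deviation from each gene's mean log2 CPM was -0.46, and complexes I to V shared this, from -0.41 in complex II to -0.48 in complex III. Library malonyl-CoA 5 had the highest value of 31 genes (37.8%, against 9.88% of all genes) with a mean deviation of 0.29. Libraries control 1 and control 5 held the highest value of 23 genes each, and control 5 also held the lowest of 13. In control 5 the mean deviations, which weigh each gene equally, were 0.23 in complex V, 0.21 in complex IV and -0.14 in complex III. By share of gene counts, however, complex V took 0.51% in control 5, against 0.521% to 0.629% in the other controls. Complex III took 0.151% there, against 0.153% to 0.188% in the other controls. In control 4, complex IV had a mean deviation of -0.37, with all 15 of its tested genes below their own means, against -0.06 to -0.13 in complexes I, II, III and V.

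**Figure D3:**
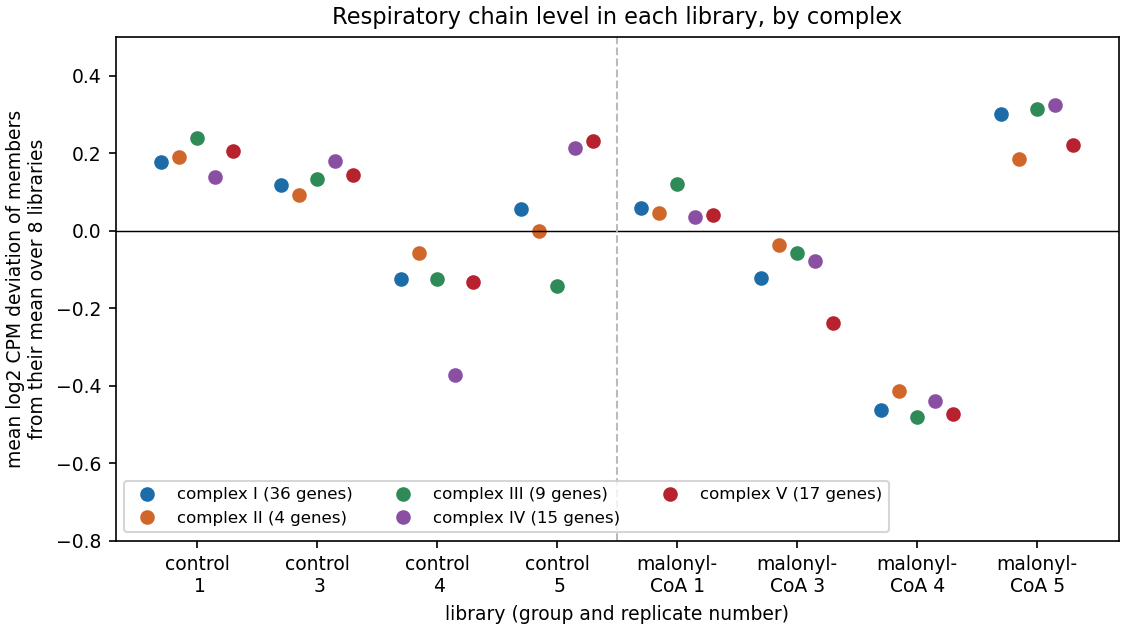
Mean deviation of the tested genes of each complex from their own mean log2 CPM over the 8 libraries, by library (left of the dashed line control, right malonyl-CoA). All 5 complexes are lowest or near their lowest in library malonyl-CoA 4 and highest or near their highest in malonyl-CoA 5.

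The main comparison asked which genes differed between malonyl-CoA and control cultures. No respiratory chain gene passed the test: with edgeR's quasi-likelihood test and Benjamini-Hochberg adjustment, 0 of the 82 genes and 0 of all 12696 genes (0%) passed the threshold of 0.05. Before adjustment, 3 of the 82 genes (3.66%) had p under 0.05 and were lower with malonyl-CoA, and none was higher, while of all genes 4.1% were lower and 5.43% higher (9.53% in either direction). DESeq2 called 81 genes (0.555% of those it tested) and limma-voom none, and none of the called genes belonged to the respiratory chain. By sign alone, 58 of the 82 fitted log2 fold changes (malonyl-CoA minus control) were below 0, or 70.7%, against 46.6% of all genes, with a median of -0.13 against 0.02. Leaving out the libraries that stand apart, control 5 and malonyl-CoA 4, turned this balance, with 48 genes above 0, 34 below and a median of 0.02. The median over all genes was then -0.004. Other removals of a library from each group did not turn it. Without both libraries numbered 1, 3, 4 or 5, the genes below 0 were 57, 52, 49 and 71. Their medians were -0.149, -0.107, -0.095 and -0.247, against 0.032, 0.036, -0.009 and 0.028 over all genes. Left out singly, each of the 8 libraries gave a median below 0, from -0.03 without malonyl-CoA 4 (45 genes below 0) to -0.28 without malonyl-CoA 5 (64 below 0), with -0.215 without control 4 (61 below 0) and -0.11 without control 5 (62 below 0). The median over all genes was -0.02 without malonyl-CoA 4, so that the 82 genes lay near it there. It was 0.026 without malonyl-CoA 5, 0.018 without control 4 and 0.025 without control 5.

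In complex I, 25 of 36 genes had fold changes below 0, with a median of -0.11, which was -0.26 without malonyl-CoA 5, -0.16 without control 4, -0.05 without control 1, -0.004 without malonyl-CoA 4, and 0.03 without both control 5 and malonyl-CoA 4. Its 7 core subunits, which carry the redox centres, lay between -0.30 for Ndufv2 and 0.16 for Ndufs7, with a median of 0.03. The 29 accessory genes had a median of -0.17, and 22 of them lay below 0. The difference between core and accessory genes was not tested.

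Ndufb4, an accessory subunit of the membrane arm, had 11.6, 10.97, 10.5 and 25.4 CPM in control libraries 1, 3, 4 and 5 and 9.35, 7.23, 5.67 and 12.1 CPM in malonyl-CoA libraries 1, 3, 4 and 5. The control 5 value was more than 2 times that of any other library, and malonyl-CoA 5 lay above the other 3 controls, so the groups overlapped. Its log2 fold change was -0.78 (SE 0.34, edgeR unadjusted p = 0.0443, adjusted p = 0.515) and was -0.37 without control 5. This is the fully copied gene shown above, so these are counts of uniquely placed reads.

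Ndufb2, another accessory subunit of the membrane arm, had 30.0, 28.5, 20.4 and 26.3 CPM in the controls and 22.1, 20.9, 16.5 and 20.2 CPM with malonyl-CoA. The groups overlapped, with control 4 within the malonyl-CoA range. The log2 fold change was -0.40 (SE 0.16, edgeR unadjusted p = 0.0300, adjusted p = 0.507). In the other direction, the largest positive difference of complex I was that of Ndufb7, with 81.7, 78.1, 71.8 and 50.8 CPM in the controls and 96.0, 79.0, 65.4 and 109 CPM with malonyl-CoA, which overlapped (log2 fold change 0.31, SE 0.19, edgeR adjusted p = 0.539). Ndufa10 ran against the rest in library malonyl-CoA 4, with 114 CPM there against 99.7 to 101 CPM in the other malonyl-CoA libraries and 73.9 to 113 CPM in the controls.

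Complex II links the citric acid cycle to the chain. Its 4 genes had a median fold change of -0.12, which was -0.035 without malonyl-CoA 4, -0.08 without control 1 and -0.18 without malonyl-CoA 5. Sdha, the flavoprotein that oxidises succinate, was nearly level across libraries, with 424 ± 13.4 CPM in controls and 420.3 ± 22.4 CPM with malonyl-CoA (SD, n = 4 each), and its log2 fold change was -0.01 (SE 0.09). Sdhb, the iron-sulfur subunit, was at 0.11 (SE 0.11), Sdhc and Sdhd, the membrane anchors, at -0.25 (SE 0.19) and -0.22 (SE 0.19), with edgeR adjusted p between 0.579 and 0.958 over the 4 genes. Sdhd had 363, 319, 263 and 315 CPM in control libraries 1, 3, 4 and 5 and 306, 276, 177 and 321 CPM in malonyl-CoA libraries 1, 3, 4 and 5. The anchors thus followed the dip of library malonyl-CoA 4, which the catalytic Sdha shared only slightly (396 CPM there against 407 to 450.4 in the other 7 libraries), and without that library Sdhd was at -0.08.

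Complex III had 5 genes above and 4 below 0, with a median of 0.07 whose sign depended on single libraries: it was -0.07 without control 5 and -0.05 without malonyl-CoA 5, and -0.14 with GC correction. It was 0.02 without malonyl-CoA 1, and 0.11, 0.14 and 0.15 without control 3, malonyl-CoA 4 and control 1. Uqcrq, a small subunit beside cytochrome b, had 165, 177, 131 and 122 CPM in the controls and 192, 163, 122 and 244 CPM with malonyl-CoA. The groups overlapped, and the log2 fold change of 0.28 (SE 0.21, edgeR adjusted p = 0.579) was 0.10 without malonyl-CoA 5. Cyc1, the cytochrome c1 haem subunit, was at 0.15 (SE 0.22) and at -0.02 without control 5, in which it had 88.3 CPM against 117 to 182 in the other libraries. In the other direction, Uqcrb had 96.7, 108, 83.0 and 198.5 CPM in the controls and 92.6, 82.1, 66.7 and 128 CPM with malonyl-CoA, so that control 5 held the highest value by far. On the log2 scale the difference was -0.40 (SE 0.29, edgeR adjusted p = 0.570), and it was -0.06 without control 5. Uqcrh was at -0.35 (SE 0.23, edgeR adjusted p = 0.543).

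Cytochrome c shuttles electrons between complexes III and IV and also triggers apoptosis once released. Its gene Cycs had 11.4, 10.3, 11.5 and 18.7 CPM in the controls and 8.96, 8.84, 8.40 and 15.7 CPM with malonyl-CoA. Within each group the library numbered 5 stood above the other 3. On the log2 scale the groups differed by -0.32 (SE 0.26, edgeR adjusted p = 0.6), a value that was -0.09 without control 5 and -0.57 without malonyl-CoA 5, and Cycs is also one of the fully copied genes.

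In complex IV, 10 of 15 tested genes had fold changes below 0, with a median of -0.10. This median was 0.02 without control 5, -0.002 without malonyl-CoA 4, -0.05 without control 3, -0.225 without malonyl-CoA 5 and -0.24 without control 4, and 0.01 with GC and length correction. Cox7a2l has been linked to the joining of complexes III and IV into supercomplexes, and its role in the cells of this strain was not tested. It had 391, 353, 249 and 255 CPM in the controls and 265, 238, 160.2 and 279 CPM with malonyl-CoA. Control libraries 1 and 3 lay above all others, while control 4 and control 5 fell within the malonyl-CoA range (log2 fold change -0.41, SE 0.21, edgeR unadjusted p = 0.0798, adjusted p = 0.515). Cox5b, a zinc-binding subunit on the matrix side, was higher on average, with 107, 92.9, 56.4 and 85.9 CPM in the controls and 111, 90.4, 76.8 and 143 CPM with malonyl-CoA. The groups overlapped, and the difference of 0.30 on the log2 scale (SE 0.23, edgeR adjusted p = 0.585) was 0.12 without malonyl-CoA 5. Its partner in the matrix-side pair, Cox5a, was at -0.25 (SE 0.25). Among the isoform pairs, Cox6a2 was at 0.21 and Cox6a1 at 0.11, Cox6b1 at -0.11 and Cox6b2 at -0.23, and Cox4i1 at -0.10, all with edgeR adjusted p of 0.605 or more. Ndufa4, the complex IV subunit listed with complex I, had 298, 283, 253 and 433.5 CPM in the controls and 255.5, 212, 170.2 and 339.8 CPM with malonyl-CoA, and its log2 fold change of -0.38 (SE 0.23, edgeR adjusted p = 0.537) was -0.19 without control 5 and -0.24 without malonyl-CoA 4.

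In complex V, 15 of 17 genes had fold changes below 0, with a median of -0.19, which was -0.06 without malonyl-CoA 4, -0.36 without malonyl-CoA 5, -0.31 without control 4 and -0.045 without both control 5 and malonyl-CoA 4. Atp5s had 11.3, 11.6, 9.32 and 13.1 CPM in the controls and 8.43, 7.28, 8.26 and 9.11 CPM with malonyl-CoA. It was the only one of the 82 genes whose malonyl-CoA libraries all lay below all controls (1.22%, against 2.93% of all genes), and none lay above all controls (3.21% of all genes). Its log2 fold change was -0.45 (SE 0.15, edgeR unadjusted p = 0.0147, adjusted p = 0.468), and it ranged from -0.54 to -0.38 when each library was left out in turn.

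Atp5mpl, a small proteolipid of the membrane part of the synthase, had 162, 148, 112 and 220.4 CPM in the controls and 121, 106, 70.0 and 148 CPM with malonyl-CoA. Its lowest control lay within the malonyl-CoA range (log2 fold change -0.53, SE 0.25, edgeR unadjusted p = 0.0622, adjusted p = 0.515), and it was at -0.34 without control 5. The most abundant gene, Atp5b, was at 0.01 (SE 0.16), with 1600 ± 289 CPM in controls and 1613 ± 222 with malonyl-CoA (SD, n = 4 each). Atp5d, the delta subunit of the rotor stalk, was at 0.19 (SE 0.24). The 3 genes for subunit c, the proton-carrying ring, encode the same mature protein. Atp5g3 was counted highest, at 378 ± 41.8 CPM in controls and 331 ± 99.4 with malonyl-CoA (SD, n = 4 each), and its log2 fold change was -0.19 (SE 0.20). Atp5g1 and Atp5g2, with 99.7% and 100% of their coding stretches elsewhere, were at 40.7 and 1.22 CPM on average over the 8 libraries.

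**Figure D4:**
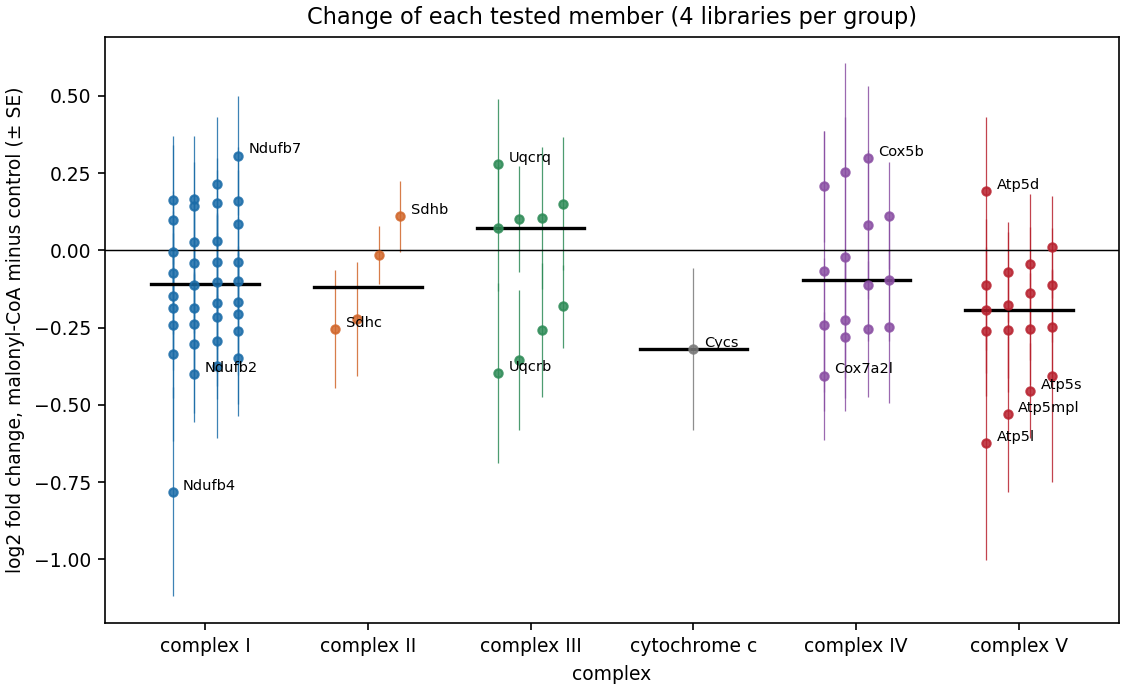
Log2 fold change (malonyl-CoA minus control) of each of the 82 tested genes by complex, with its standard error (thin vertical lines) and the median of each complex (black bars). Complex V has 15 of 17 genes below 0, complex III has 5 of 9 above 0, and none passes the adjusted threshold.

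The fold changes followed the GC share of the transcripts. Across the 82 genes, the Spearman correlation between log2 fold change and GC share was 0.65, and across 10288 expressed genes it was 0.45. The points share the 8 libraries, and genes are not independent replicates. Of the 28 genes with the lowest GC share (41.3% to 48.8%), 27 were below 0, with a median of -0.25, while 64.9% of all genes in that range were below 0. Of the 27 genes with the highest GC share (53.4% to 60.8%), 10 were below 0, with a median of 0.08, against 25% of all genes in that range. The 27 genes between had 21 below 0 and a median of -0.11. This split was chosen after the values were seen.

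Libraries differed in this respect, and over all genes control 5 differed most. The Spearman correlation between a gene's deviation in control 5 and its GC share was -0.68 over the 82 genes and -0.74 over all 10288, whereas in the other 3 controls it lay between -0.03 and 0.24 over the 82 genes. It was 0.71 in malonyl-CoA 1, 0.55 in malonyl-CoA 3, 0.36 in malonyl-CoA 4 and 0.21 in malonyl-CoA 5. The 28 low-GC genes had a mean deviation of 0.42 in control 5, and the 27 high-GC genes one of -0.23. Without control 5, the Spearman correlation between fold change and GC share was 0.33 over the 82 genes. With a correction of each library for GC share, 70 of the 82 genes were below 0, with a median of -0.19. Of all genes in the 3 GC ranges, 52.9% to 55.9% were then below 0, and the median over all genes was -0.028. With a correction for GC share and transcript length 47 of the 82 were below 0, with a median of -0.04. This lay near all genes, of which 48.4% to 58.9% in the 3 ranges were below 0, with a median of -0.024 over all genes. Respiratory chain transcripts were short, with a median of 746.5 bases against 1744 for all genes tested. What part GC share and length have in the fold changes beyond these corrections was not tested.

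**Figure D5:**
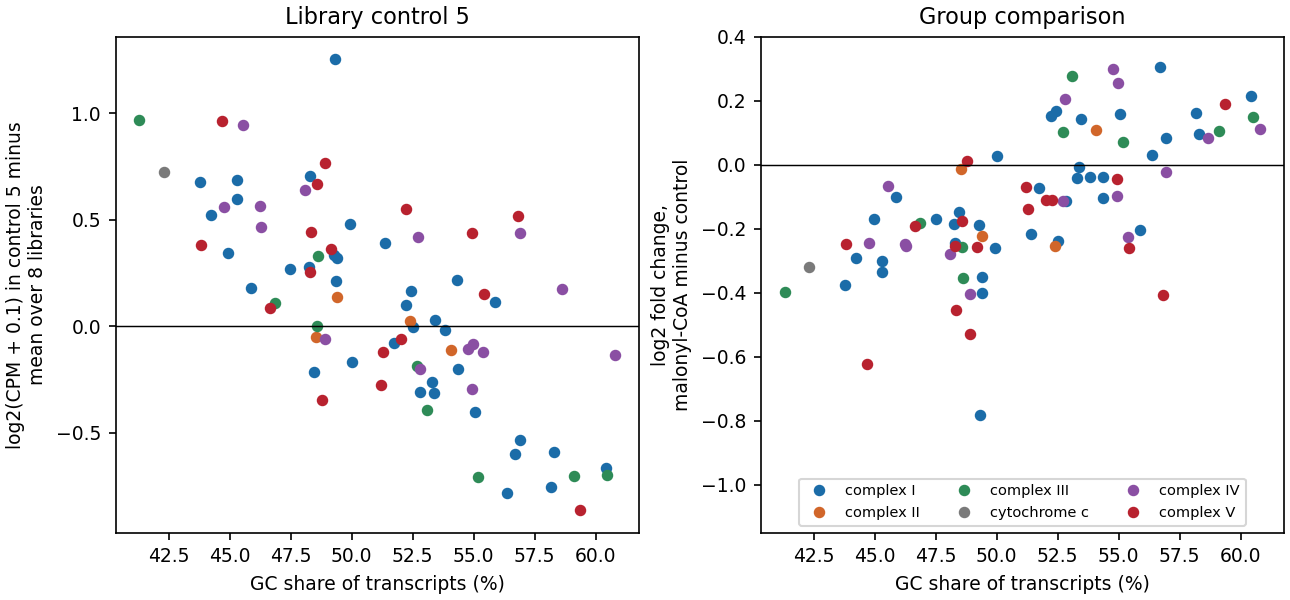
Left, deviation of each tested gene in library control 5 from its mean log2 level over the 8 libraries against the GC share of its transcripts. Right, log2 fold change (malonyl-CoA minus control) against the same GC share; the points run downward on the left (Spearman correlation -0.68) and upward on the right (Spearman correlation 0.65).

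The subunits encoded in the mitochondrial genome complete complexes I, III, IV and V. Of the 13, 8 were tested and the other 5 were at or near 0 counts, and all 8 had fold changes below 0, with a median of -0.76. These are again counts of uniquely placed reads: mt-Co2 reached at most 0.0939 CPM, while mt-Co1 lay between 6640 and 29300 CPM. The low counts are therefore uncertain as transcript levels, and how many reads went to the uncounted class was not tested. Together the 13 genes took 3.98%, 3.03%, 2.54% and 6.78% of gene counts in control libraries 1, 3, 4 and 5 and 1.76%, 2.17%, 1.68% and 4.19% in malonyl-CoA libraries 1, 3, 4 and 5. The groups overlapped, and in both groups the library numbered 5 was the highest, as for Cycs. The largest difference was that of mt-Nd6, with 4.68, 3.44, 3.68 and 16.1 CPM in the controls and 1.46, 3.13, 2.81 and 3.67 CPM with malonyl-CoA (log2 fold change -1.35, SE 0.54, edgeR adjusted p = 0.507), which was -0.51 without control 5. Cytochrome b, mt-Cytb, was at -0.81 (SE 0.40, edgeR adjusted p = 0.515) and at -0.40 without control 5.

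Assembly factors insert cofactors and join subunits without staying in the finished complex. Of 50 listed, 49 were tested, and 15 lay above and 34 below 0, with a median of -0.08; none passed the adjusted threshold, and 3 were lower and none higher at an unadjusted p under 0.05, where 4.1% of all genes were lower and 5.43% higher. Cmc1, which stabilises the first complex IV intermediate, had 35.9, 34.8, 28.7 and 63.5 CPM in the controls and 27.9, 24.8, 20.4 and 33.4 CPM with malonyl-CoA (log2 fold change -0.62, SE 0.25, edgeR unadjusted p = 0.0361, adjusted p = 0.515). It was at -0.32 without control 5. Sdhaf4, a complex II factor that binds flavinated Sdha, was at -0.53 (SE 0.23, edgeR adjusted p = 0.515). Of the positive values, those with the smallest edgeR p were 0.31 (SE 0.17) for Cox10 and 0.23 (SE 0.18) for Ecsit. Cox10 is an enzyme in the synthesis of the haem of complex IV, and Ecsit is a complex I factor.

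Regulators of respiratory chain transcription were mixed. Of 14 listed, 13 were tested, with 6 above and 7 below 0 and a median of -0.01, and none passed the adjusted threshold. Pprc1, a coactivator of the PGC-1 family, had 35.1, 36.1, 55.9 and 33.2 CPM in control libraries 1, 3, 4 and 5 and 50, 51.7, 83.8 and 47.2 CPM in malonyl-CoA libraries 1, 3, 4 and 5. In both groups the library numbered 4 was the highest, and the groups overlapped, with control 4 within the malonyl-CoA range (log2 fold change 0.54, SE 0.23, edgeR unadjusted p = 0.0419, adjusted p = 0.515). Pprc1 was at 0.30 without malonyl-CoA 4. Ppargc1b, of the same family, was at 0.64 (SE 0.36) and at 0.16 without malonyl-CoA 4, in which it had 3.71 CPM. Tfam, which packages and transcribes mitochondrial DNA, had 111, 109, 101 and 140 CPM in the controls and 90.6, 91.6, 78.4 and 107 CPM with malonyl-CoA (log2 fold change -0.33, SE 0.14, edgeR unadjusted p = 0.0413, adjusted p = 0.515).

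Markers of cell types moved beside these genes. At the level of summed CPM, 8 mast cell and basophil genes lay between 990 and 1191 in controls and between 835 and 960 with malonyl-CoA, 7 erythroid genes between 30.4 and 32.4 and between 24.4 and 29.5, and 10 stem and progenitor genes between 928 and 1007 and between 845 and 852, so that these 3 sums did not overlap. Most of the last sum is Cd34, at 598 ± 41.4 CPM in controls and 454 ± 20.1 with malonyl-CoA (SD, n = 4 each), while 6 of the 10 genes had fold changes above 0 and the list's median was 0.04. The erythroid sum was led by Gata1, which overlapped, with 16 to 19 CPM in controls and 13.9 to 18.2 with malonyl-CoA. In that list Hba-a1 reached at most 0.057 CPM. No share over all genes was computed for such sums. The other lists' sums overlapped, with shifts within them. Among 12 neutrophil granule genes, 11 were below 0 (median -0.50), 6 of them at an unadjusted edgeR p under 0.05. Dendritic genes had 6 of 8 tested above 0 (median 0.485), with 3 higher at that p. Monocyte and macrophage genes had 6 of 9 tested above 0 (median 0.275), with 3 higher at that p. Lymphoid genes had 4 of 5 tested below 0 (median -0.35), with 3 lower at that p. Over all genes, 46.6% were below 0, and 4.1% were lower and 5.43% higher at that p. No gene of these lists passed the adjusted threshold. The part of cell composition in the respiratory chain values was not tested.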

How the data were processed

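RNA of 8 cultures was sequenced as stranded total RNA libraries, per the labels' protocols. The deposited files give unnormalised whole-number counts for each Ensembl gene. The submitters' processing notes name HTSeq 0.6.1, cutadapt 1.8, STAR 2.5.2b and the build GRCm38. Strand setting and annotation release were not given in the sources used here. Lines for reads outside genes, ambiguous or aligned to several places stayed out of library sizes (1.11% to 2.94%, 0.715% to 0.891% and 38.2% to 51.1% of reads). Gene identifiers were matched to GENCODE M21 (48349 of 48709), and symbols chose the respiratory chain genes; 1 further identifier that the rule selects in the annotation is not analysed here. Members and lists were chosen with earlier results of these data known.

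Groups came from the sample titles. Genes were filtered with filterByExpr (minimum count 10, minimum total 15) and tested in edgeR 4.0.16 (R 4.3.3; TMM factors, robust quasi-likelihood fit, two-sided) over all 8 libraries, with Benjamini-Hochberg adjustment over 12696 genes and a threshold of 0.05. CPM used the TMM library sizes. The procedure was tested on simulated data with independent libraries and the same dispersion for every gene. Shifts shared by same-numbered libraries and trends with transcript length were not simulated. DESeq2 1.42.0, limma 3.58.1 (voom), RLE or no factors, other filters, GC and length corrections (per-library loess, span 0.5, genes above a mean log2 CPM of 2), a replicate block and left-out libraries were the alternatives. Same-numbered libraries shared no stated source, and no pair of the 28 library pairs was as alike as a library deposited more than once would be (lowest chi-square per gene 7.63).

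Named genes were, within each complex, the 2 with the smallest p in each direction at a mean of at least 1 CPM, the genes of complex II, Cyc1, Cycs, Ndufa4 and the isoform sets of complex IV and subunit c, and of each other list the 2 with the smallest p in each direction; Atp5if1 was on the list and is not analysed here. Other genes are named as ends of ranges.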

Additional observations from a re-analysis of the deposited data

Results flagged for a closer look

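In 98 groups of 4 libraries examined (the CPM of each of 43 named genes, and the share of gene counts of the whole chain and of each complex, in each condition), a single library stood far from the other 3 in 10, by Dixon's criterion; chance alone gives about 1 in 20. Library control 5 was high for Ndufb4 (25.4 CPM, the others 10.5 to 11.6), Cycs (18.7, the others 10.3 to 11.5) and mt-Nd6 (16.1, the others 3.44 to 4.68), and low for Ecsit (18.6, the others 28.4 to 30.1). Library malonyl-CoA 5 was high for Cycs (15.7 CPM, the others 8.40 to 8.96) and mt-Cytb (7990 CPM, the others 3260 to 3920). Library malonyl-CoA 4 was high for Ndufa10 (114 CPM, the others 99.7 to 101), Pprc1 (83.8, the others 47.2 to 51.7) and Ppargc1b (3.71, the others 1.47 to 1.54). Library control 4 was high for Pprc1 (55.9 CPM, the others 33.2 to 36.1). Of these 10, 4 fall on control 5, 3 on malonyl-CoA 4, 2 on malonyl-CoA 5 and 1 on control 4.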

How the results depend on the processing

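Depth, at 17492085 or more gene counts, leaves most respiratory chain genes well counted. The limits are 4 libraries a group, the libraries that stand apart, and genes whose coding sequence also occurs at other loci. No respiratory chain gene was called by DESeq2, limma-voom or any edgeR alternative, apart from the block below.

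Genes called over the whole table numbered 0 in the reported fit, 1 with no filter on low counts and 81 with DESeq2. Each library left out in turn gave 0 to 0. Respiratory chain genes at an unadjusted edgeR p under 0.05 numbered 3 as reported (3.66%, against 9.53% of all genes). With GC and length correction they numbered 7 (3 higher, 4 lower, against 3.17% and 5.9% of all genes). They numbered 0 without both libraries numbered 1, 0 without both numbered 3, 7 without both numbered 4 and 5 without both numbered 5. Without control 5 and malonyl-CoA 4 there was 1, and at a threshold of 0.01 there were 0. With each library left out in turn there were 1 to 6 (1 without malonyl-CoA 3, 6 without control 4 or malonyl-CoA 5). The share over all genes was not computed with libraries left out or at 0.01, so those counts are not read as results about the chain.

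Same-numbered libraries deviated together with correlations of 0.43, 0.43, 0.75 and 0.05 for numbers 1, 3, 4 and 5, and not every library correlated best with its own number. With the replicate number as a block, 172 genes (1.35%) were called, among them Atp5mpl (log2 fold change -0.54, edgeR adjusted p = 0.0464) and the regulator Pprc1 (0.53, edgeR adjusted p = 0.0474), and 22 respiratory chain genes, all lower, had an unadjusted p under 0.05 (26.8%, against 10.5% of all genes that were lower). With the block and the GC and length correction, an alternative chosen after seeing the data, 25 genes were called, Atp5mpl (-0.26, edgeR adjusted p = 0.166) and Pprc1 (0.345, edgeR adjusted p = 0.105) not among them, and 15 respiratory chain genes had an unadjusted p under 0.05, 4 higher and 11 lower (10.8% and 11.3% of all genes).

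Of 43 named genes, 27 kept their sign under the alternatives they entered (25, less for mt-Nd6 and mt-Cytb the one without mitochondrially encoded genes) and 16 did not; in each of these the cause was not tested. Log2 fold changes that turned were, with GC correction, Sdhb -0.023, Cyc1 -0.134, Atp5d -0.053, Cox6a1 -0.225 and Cox8a -0.211. With GC and length correction they were Cyc1 -0.054, Sdha 0.122, Cox6a1 -0.040, Cox6b1 0.093 and Cox7a2 0.020, and with the block added to it Cyc1 -0.054, Sdha 0.127, Cox6a1 -0.033, Cox6b1 0.105 and Cox7a2 0.018. With library size only they were Sdha 0.025 and Cox4i2 0.021. Without both libraries numbered 4 they were Sdha 0.023, Cox4i2 0.077 and Atp5g1 0.002. Without both numbered 5 they were Cyc1 -0.086, Atp5d -0.053, Atp5b -0.119, Cox4i2 0.190, Cox6a1 -0.037 and Cox8a -0.020. Without control 5 and malonyl-CoA 4 they were Uqcrb 0.073, Cycs 0.003, Cox4i2 0.450, Cox5a 0.066, Cox6b1 0.139 and Cox7a2 0.028. With each library left out in turn, the ranges were Cyc1 -0.016 to 0.306, Atp5d -0.002 to 0.332, Atp5b -0.089 to 0.108, Sdha -0.048 to 0.005, Cox4i1 -0.225 to 0.034, Cox4i2 -0.3 to 0.293, Cox6a1 -0.012 to 0.221, Cox6b1 -0.238 to 0.021, Cox7a1 -0.009 to 0.432, Cox8a -0.089 to 0.226 and Atp5g1 -0.363 to 0.004.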
